A study of Mus musculus with 7 samples.

Results

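The mitochondrial ribosomal protein genes are described here by the accessibility of their promoters in LSK cells, the Lineage- c-Kit+ Sca-1+ bone marrow fraction that contains stem cells and multipotent progenitors of blood. They were chosen by symbol alone, as protein-coding genes of GENCODE vM21 (mm10) named Mrpl or Mrps followed by digits, which gave 78 of 21938 protein-coding genes on 17 chromosomes. Open chromatin was read by ATAC-Seq, which inserts sequencing adapters into accessible DNA with a transposase, in 7 libraries of 50000 sorted cells each from mice 8 to 12 weeks old on a C57BL/6 background. The 4 WTAkita libraries came from wild-type offspring of diabetic dams heterozygous for the Ins2 Akita mutation, which impairs insulin folding and secretion, so the offspring lived through the mother's diabetes without carrying the mutation. The 3 Ctrl libraries came from offspring of normal pregnancies in wild-type littermate dams. Dams of both kinds ate a high fat diet before breeding with C57BL/6 males, and the offspring a regular diet. The libraries are called biological replicates, pools of bone marrow cells are described for sorting, and how many mice went into each is not stated in the sources used here. The spread behind a p-value is therefore that between libraries.

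Mitochondria carry their own ribosome, which translates the few membrane proteins of the respiratory chain that the mitochondrial genome encodes. Its RNAs come from that genome, but every one of its proteins is encoded in the nucleus, made in the cytosol and imported. Part of these proteins have a counterpart in the bacterial ribosome and the rest were added in the mitochondrial lineage, and both kinds occur in the large subunit, which forms peptide bonds, and in the small subunit, which reads the mRNA. Hematopoietic stem cells at rest are known to rely little on respiration, which increases as they enter the cell cycle and differentiate.

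The value of a gene was the highest fold enrichment among the peaks within 1000 bp of any of its transcript starts, where fold enrichment is the authors' ratio of the pileup at the peak summit to the background around it. Its percentile is its rank within the library among all protein-coding genes with such a peak, with 100 as the strongest. The lists held 137963 to 151552 peaks, and 16142 to 16265 genes had a promoter peak in a library. Median fold enrichment was lowest in WTAkita replicate 1 (5.25), WTAkita replicate 2 (5.78) and Ctrl replicate 1 (5.79), and lay between 6.32 and 6.59 in the other libraries, so raw values are compared through ranks or after quantile normalization. The tags behind a list were estimated at 37600000 to 53100000. Of 10 LSK markers, 10 had a promoter peak in all 7 libraries, Kit, Cd34 and Flt3 among them, while Cd8a of T cells, Ms4a1 of B cells and Alb of hepatocytes had none in any library. Markers of other cells also had promoter peaks in all 7 libraries (2 of 4 T cell, 2 of 4 B cell, 4 of 4 erythroid, 2 of 4 granulocyte and macrophage and 3 of 4 non-hematopoietic markers, the last being Col1a1, Epcam and Cdh5), and what this says of other cells in the sort was not tested. Peaks at 4 of 4 Y-linked start sites were present in WTAkita replicates 2 and 3 and in Ctrl replicates 2 and 3, and absent from the other 3 libraries.

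Every member had an accessible promoter. All 78 genes had a promoter peak in all 7 libraries, against 72.1% of all protein-coding genes, 81 of 91 cytosolic ribosomal protein genes and 41 of 47 Slc25a genes, which encode carriers of the inner mitochondrial membrane. The 10 cytosolic entries without such a peak had none in any library, and were 6 with pseudogene symbols and Rpl10l, Rpl39l, Rpl3l and Rps27rt. The peaks of the members were also strong. The median percentile of the members was 65.6 to 70.4 in the 4 WTAkita libraries and 66.5 to 70.9 in the 3 Ctrl libraries, and these ranges overlap. Over all genes this median is 50 by construction. Averaged over the 7 libraries, 30 of 78 members (38.5%) lay above the 75th percentile, against 24.9% of all genes with a peak in every library, and 8 members (10.3%) lay below the 25th, against 22.8%. The members were far from uniform, with mean percentiles between 15.4 and 99.5.

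**Figure D1:**
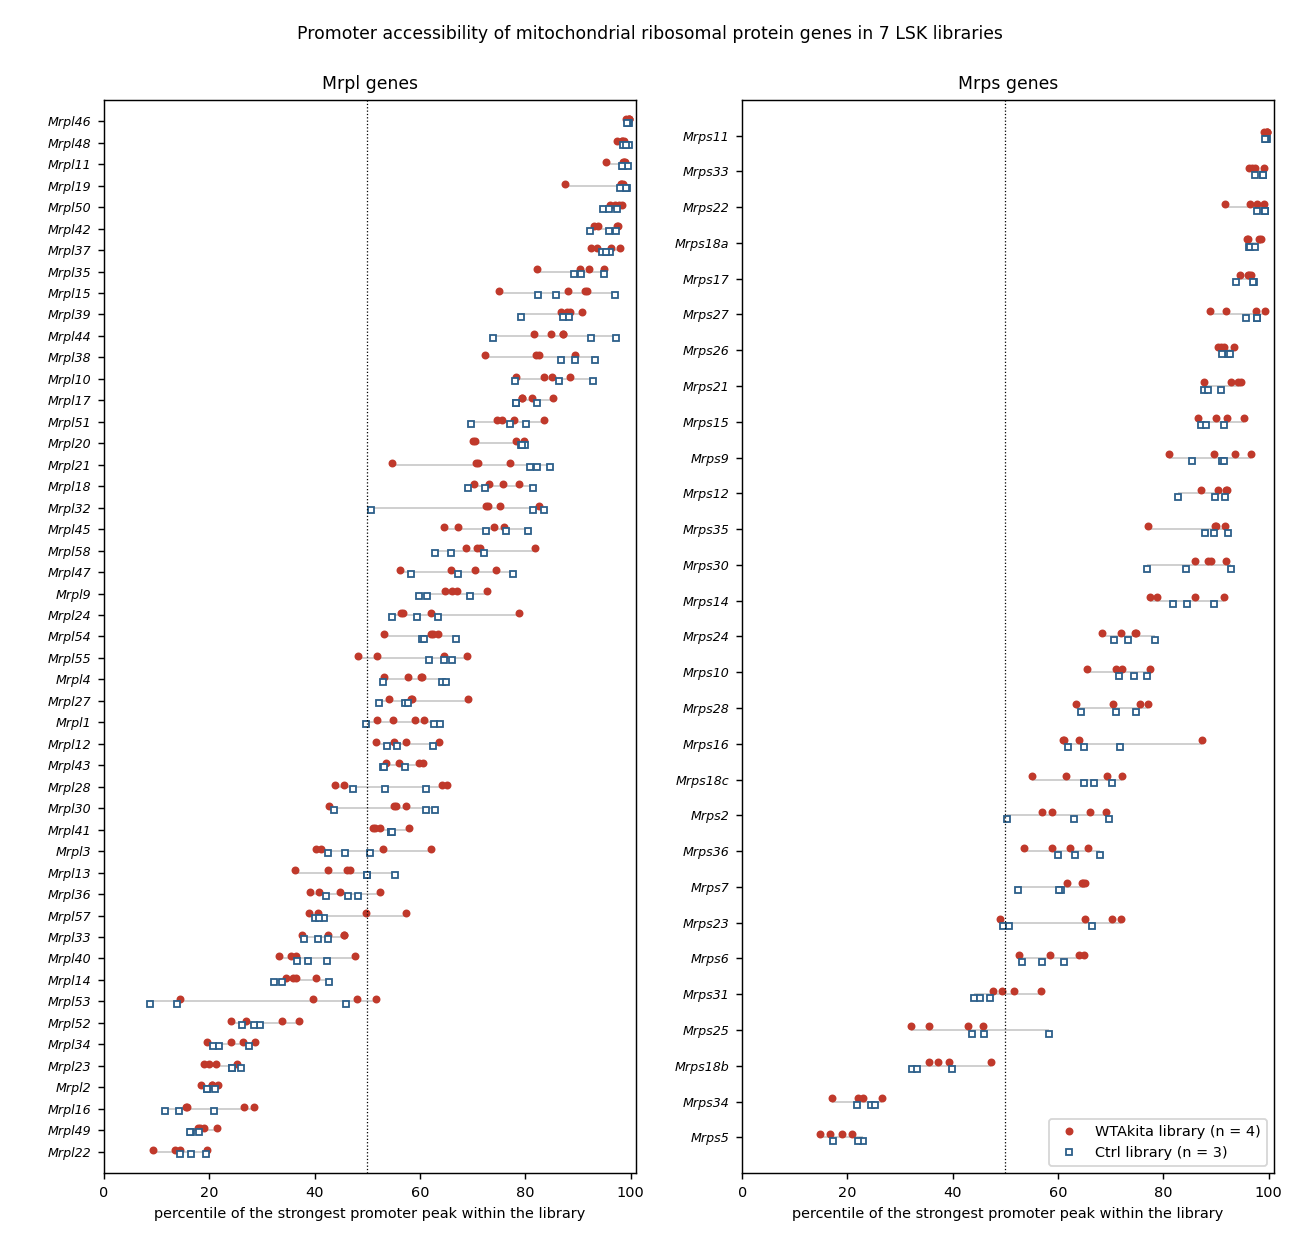
Percentile of the strongest promoter peak within each library (x axis, 100 is the strongest) for the Mrpl and the Mrps genes, ordered by their mean over 7 libraries. Filled circles are the 4 WTAkita libraries, open squares the 3 Ctrl libraries, the grey line is the range over all 7 and the dotted line is the 50th percentile. Mrpl46 and Mrps11 sit at 99.1 to 99.7 in every library, Mrpl22 at 9.26 to 19.6, and Mrpl53 has the widest range.

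The order of the members was much the same in every library. Spearman's rho of fold enrichment over the 78 members was 0.915 to 0.962 between pairs of libraries, which share annotation and base composition. The range of a member's percentile over 7 libraries had a median of 12.7, 53 members were above the 50th percentile in all 7 libraries, and 13 were below it in all 7. Of the 78 members, 67 reached a fold enrichment of at least 10 in every library.

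Mrpl46, a protein of the large subunit found only in mitochondria, and Mrps11, a protein of the small subunit platform, had the strongest peak. It is a single peak, since the genes start close to each other on opposite strands of chromosome 7. Their outermost GENCODE 5' ends lie 412 bp apart, with overlapping first exons. The RefSeq starts, at 78783089 for Mrpl46 and 78783131 for Mrps11, lie closer together and face away from each other without overlap. Fold enrichment of the shared peak was 27.6, 27.3, 32.6 and 32.6 in the WTAkita libraries, against 29.9, 31.5 and 30.9 in the Ctrl libraries. The values of the groups overlap, and the lower ones fell in WTAkita replicates 1 and 2.

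Mrpl48, of the large subunit, followed with 25.3, 26.3, 28.9 and 28.5 in the WTAkita libraries, against 29.6, 29.4 and 30.2 in the Ctrl libraries. This peak lies at transcript starts inside the gene record and not at its 5' end. Mrpl11, the large subunit protein at the base of the stalk that recruits translation factors, had 22.2, 26.5, 29.4 and 30.6 in the WTAkita libraries, against 27.2, 31.7 and 28.6 in the Ctrl libraries. Raw values overlapped between groups for Mrpl11. Those of Mrpl48 did not, but its normalized values did.

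Mrps33 and Mrps22, both proteins of the small subunit without a bacterial counterpart, completed the 6 highest. Mrps33 had 22.9, 27.4, 27.3 and 28.4 in the WTAkita libraries, against 27.8, 28.0 and 29.5 in the Ctrl libraries. Mrps22, in which inherited human mutations cause respiratory chain deficiency, had 20.6, 27.4, 28.0 and 27.6 in the WTAkita libraries, against 26.0, 30.8 and 30.9 in the Ctrl libraries. For both genes the lowest value was that of WTAkita replicate 1.

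At the other end stood 4 large subunit proteins and 2 small subunit proteins. Mrpl22, whose bacterial counterpart lines the tunnel through which the new peptide leaves, had 5.25, 8.26, 7.88 and 7.89 in the WTAkita libraries, against 7.32, 8.47 and 9.18 in the Ctrl libraries. Mrpl49, of the large subunit, had 7.64 to 9.85 in the WTAkita libraries and 7.82 to 8.81 in the Ctrl libraries. Mrpl16 had 7.39 to 10.7 in the WTAkita libraries and 6.49 to 9.49 in the Ctrl libraries. The groups overlap in all 3 genes.

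Mrpl2, which in bacteria supports the centre that forms peptide bonds, had 7.50 to 9.64 in the WTAkita libraries and 8.41 to 9.51 in the Ctrl libraries. Mrps5, a small subunit protein near the mRNA entry, had 7.16 to 9.31 in the WTAkita libraries and 8.63 to 9.80 in the Ctrl libraries. Mrps34, a small subunit protein specific to mitochondria, had 7.70 to 10.9 in the WTAkita libraries and 9.41 to 10.3 in the Ctrl libraries. Again the groups overlap, and every value lies below the lowest value at the top of the order.

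Fold enrichment depends on the local background as well as on the pileup. The 13 members above a mean percentile of 95 had a median background of 11.2 tags and a median summit pileup of 6.61 per 1000000 tags, and the 8 members below 25 had medians of 17.9 tags and 3.80 per 1000000. Mrpl34 is the clearest exception among the low members, with a pileup of 12.2 per 1000000 over a background of 55.9 tags, against 8.41 per 1000000 over 11.7 tags for Mrpl46. Over the 78 members, the mean percentile had a Spearman's rho of 0.395 with the pileup and of -0.304 with the background, a description in which both measures come from the same peaks.

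By role, the large subunit proteins with a bacterial counterpart had the lowest median of the mean percentile, at 58.6 (30 genes), and 5 of the 8 members below the 25th percentile were among them. The large subunit proteins specific to mitochondria had a median of 76.9 (21 genes), and 11 of them were above the 75th percentile. The small subunit genes had medians of 72.9 with a bacterial counterpart (16 genes) and 74.4 without (10 genes). Mrps36, which carries the symbol but encodes an adaptor of the alpha-ketoglutarate dehydrogenase complex and no ribosomal subunit, had a mean percentile of 61.6. Highest and lowest of their groups were Mrpl11 (98.3) and Mrpl22 (15.4), Mrpl46 (99.5) and Mrpl49 (18.2), Mrps11 (99.5) and Mrps5 (19.1), and Mrps33 (97.8) and Mrps34 (22.9).

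Other genes of mitochondrial gene expression also had accessible promoters. All members of 6 further lists had a promoter peak in all 7 libraries, namely 5 mitoribosomal proteins with other symbols, 14 mitochondrial translation factors, 24 assembly factors of the mitoribosome, 17 mitochondrial aminoacyl-tRNA synthetases, 7 genes of mitochondrial transcription and 10 regulators of nuclear genes for mitochondria. Their medians of the mean percentile were 54.4, 70.6, 71.5, 78.0, 86.0 and 47.3, in that order, against 67.3 for the Mrp genes, 67.8 for the Slc25a genes and 59.2 for the cytosolic ribosomal protein genes. The 7 genes of mitochondrial transcription ranged from 15.4 for Tefm to 98.5 for the mitochondrial RNA polymerase Polrmt. Tfam, which packages mitochondrial DNA and takes part in its transcription, stood at 86.0.

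**Figure D2:**
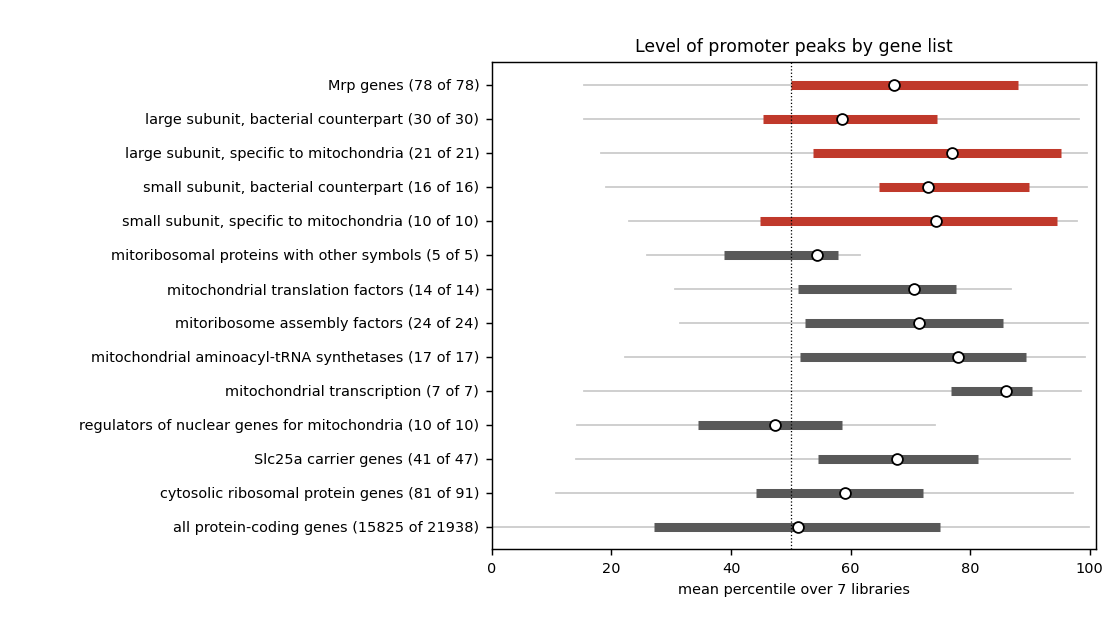
Mean percentile over 7 libraries of the genes with a promoter peak in all 7 libraries, by gene list, with the Mrp genes and their role groups in red. The circle is the median, the thick bar runs between the quartiles, the thin line covers lowest to highest, and the counts give genes with a peak in all 7 libraries of all genes listed. The Mrp genes have a median of 67.3 and the cytosolic ribosomal protein genes one of 59.2, as ranks of fold enrichment.

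The peaks of the members sat close to their start sites. The median summit lay within 100 bp of a transcript start in 55 of 78 members (70.5%), against 55.3% of all genes with a peak in every library. This is not particular to the members. The share was 74.1% in the cytosolic ribosomal protein genes, 65.9% in the Slc25a genes and 50% to 87.5% in the 6 lists of mitochondrial gene expression. The median peak width was 922 bp for the members and 968 bp for all genes. The summit of the strongest peak lay over 1000 bp from every start in Mrps34 in all 7 libraries, and in Mrpl37 and Mrpl53 in 4 libraries each. For Mrps34 the peak was also the strongest of Nme3 and Eme2, and the peak at its own 5' end had fold enrichments of 5.93 to 7.95 in the WTAkita libraries and 5.89 to 6.97 in the Ctrl libraries. For Mrpl37 a peak 7942 to 7947 bp into the gene was the strongest in WTAkita replicates 1, 3 and 4 and in Ctrl replicate 2, and the peak at its 5' end in WTAkita replicate 2 and Ctrl replicates 1 and 3. The peak at the 5' end had 19.4 to 26.6 in the WTAkita libraries and 23.7 to 26.7 in the Ctrl libraries. Mrpl53 is described with the comparison of the groups.

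Many members share their promoter. In 29 of 78 (37.2%) the strongest peak was, in all 7 libraries, also the strongest of another protein-coding gene, against 15.1% of the 15825 genes with a peak in every library. The share was 35.3% in the mitochondrial aminoacyl-tRNA synthetases, 29.2% in the assembly factors and 28.6% in mitochondrial transcription. It was 18.5% in the cytosolic ribosomal protein genes, 17.1% in the Slc25a genes, 14.3% in the translation factors, 10% in the regulators and 0% in the mitoribosomal proteins with other symbols. In 28 of the 29 members the other gene, or one of them, starts on the opposite strand within 1000 bp. An opposite-strand 5' end at that distance, on either side, was found for 33 members in all (42.3%), against 14.7% of all genes and 14.3% to 40% in the lists of mitochondrial gene expression. This definition was widened after seeing the data, so as to include pairs whose first exons overlap in GENCODE, such as Mrpl46 and Mrps11. Counting only 5' ends up to 1000 bp upstream gave 18 members (23.1%), against 9.19%, and 15 of the 29. For such a pair the accessibility of either gene alone cannot be told apart. The 5 of highest level were Mrpl46 and Mrps11, which share with each other, Mrpl50 with the zinc finger gene Zfp189, Mrps27 with Ptcd2, a mitochondrial RNA processing factor, and Mrps12 with Sars2, the mitochondrial seryl-tRNA synthetase. Mrps12, the small subunit protein of the decoding site, had 20.4 to 24.5 in the WTAkita libraries and 21.5 to 23.3 in the Ctrl libraries. Further members shared a peak with genes for mitochondrial proteins, namely Mrpl43 with the DNA helicase Twnk, and Mrpl36 and Mrpl47 with Ndufs6 and Ndufb5 of respiratory complex I. These were picked for the known function of the partner, and others shared with genes of different function, such as Mrpl18 with the chaperonin gene Tcp1, Mrpl32 with the proteasome gene Psma2, Mrpl40 with the histone chaperone gene Hira and Mrpl49 with Fau, which encodes a cytosolic ribosomal protein.

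The promoter sequences of the members were rich in CpG and in a few motifs when set against all windows. RefSeq promoter windows of 300 bases (250 before and 50 after the start, GRCm38.p6) matched 69 of the 78 members and 12179 of all genes with a peak in every library. The observed to expected ratio of CpG was at least 0.6 in 63 of 69 (91.3%), against 88.5% of 61 windows of cytosolic ribosomal protein genes and 67.3% of all windows, at a median GC content of 58.0% in the member windows and 60.7% in all. The ETS motif CCGGAAG, which the mitochondrial gene regulator GABPA can bind, stood in 25 windows (36.2%), against 16.1% of all. The motif GCGCATGC of NRF1, named for its role in nuclear genes for respiration, stood in 8 (11.6%), against 4.89%, and AAGATGGCG of YY1 also in 8 (11.6%), against 2.74%. At least 1 of these 3 stood in 35 of 69 windows (50.7%), against 45.9% of the cytosolic ribosomal protein windows and 22.0% of all, and none of the ETS and YY1 matches overlapped. In 32 windows of Slc25a genes, which are also nuclear genes for mitochondria, at least 1 of the 3 stood in 18.75%. ETS stood in 18.8% of these windows, NRF1 in 0 and YY1 in 3.12%, and the CpG ratio was at least 0.6 in 56.25%. All motifs were searched as letters on both strands, and a match is neither a bound site nor a cause of accessibility.

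The other 6 motifs did not share this pattern, apart from that of ZNF143 and THAP11. CCAAT of NFY stood in 27 member windows (39.1%), against 37.7% of all, GGGCGG of the SP and KLF factors in 33 (47.8%), against 62.9%, CACGTG of the E-box factors in 5 (7.25%), against 9.72%, and TGACGTCA of CREB in 2 (2.90%), against 3.01%. ACTACAA, shared by ZNF143 and THAP11, stood in 5 (7.25%), against 3.91%. TCTCGCGA of ZBTB33 stood in 1 window (1.45%), against 2.03% of all and 16.4% of the cytosolic ribosomal protein windows. The ETS motif had the same share in both kinds of ribosomal protein gene (36.2% and 36.1%), while NRF1 stood in 11.6% of Mrp and 3.28% of cytosolic windows.

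**Figure D3:**
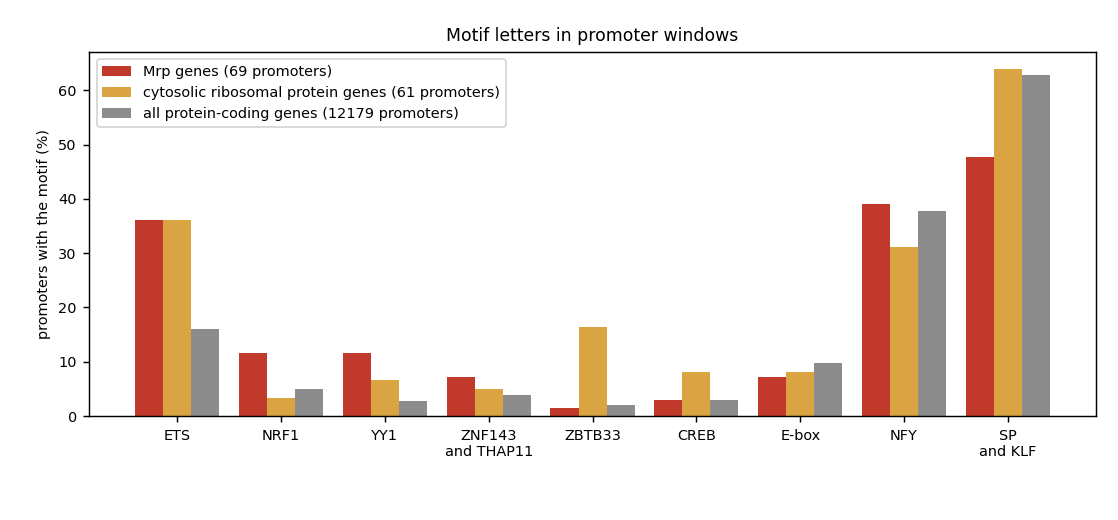
Share of RefSeq promoter windows that hold each motif on either strand (y axis, percent, starting at 0) for 69 Mrp genes in red, 61 cytosolic ribosomal protein genes in ochre and 12179 protein-coding genes in grey. ETS, NRF1 and YY1 are more frequent in the Mrp windows than in all windows, at 36.2%, 11.6% and 11.6% against 16.1%, 4.89% and 2.74%.

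A few promoters show how these motifs are placed. The 100 bases before the RefSeq start are given with ETS and NRF1 matches in capitals, for Mrps22 at chr9:98601680-98601779 (minus strand), Mrps18a at chr17:46110904-46111003 (plus strand), Mrpl43 at chr19:45006443-45006542 (minus strand), Mrpl9 at chr3:94443236-94443335 (plus strand) and Mrpl22 at chr11:58171564-58171663 (plus strand). Mrps22 and Mrps18a are high members with 1 ETS match, Mrpl43 has 2, Mrpl9 has 2 overlapping NRF1 matches read as 1 run, and Mrpl22, the member of lowest level, has both.
Mrps22: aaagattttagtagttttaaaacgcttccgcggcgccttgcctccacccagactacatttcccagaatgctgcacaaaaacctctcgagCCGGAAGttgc
Mrps18a: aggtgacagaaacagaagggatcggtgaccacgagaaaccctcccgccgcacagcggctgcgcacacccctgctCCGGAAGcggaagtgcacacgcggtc
Mrpl43: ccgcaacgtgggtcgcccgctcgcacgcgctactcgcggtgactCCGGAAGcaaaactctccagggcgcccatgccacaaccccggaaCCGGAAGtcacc
Mrpl9: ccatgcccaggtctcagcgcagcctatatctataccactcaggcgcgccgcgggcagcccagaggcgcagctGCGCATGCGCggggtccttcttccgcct
Mrpl22: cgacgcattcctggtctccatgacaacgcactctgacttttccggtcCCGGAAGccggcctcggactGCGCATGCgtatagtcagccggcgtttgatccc
Mean percentiles of these genes were 97.3, 97.0, 56.2, 65.9 and 15.4 in the order shown, so ETS matches stood in promoters from the top and from the bottom of the order. The highest member with an NRF1 match had a mean percentile of 87.0. Over the members, the median of the mean percentile was 70.5 with an ETS match (25 genes) and 66.6 without (44 genes), and 70.0 with an NRF1 match (8 genes) and 67.2 without (61 genes).

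The YY1 matches lay mostly just after the start, at a median of 23 bases from it, and 5 of the 8 are shown as stretches of 30 bases with the motif in capitals because their genes stand at the top of the order. They lie at chr7:78783013-78783042 (plus strand), chr13:99344790-99344819 (plus strand), chr17:46111005-46111034 (plus strand), chr10:95501903-95501932 (minus strand) and chr4:107066821-107066850 (minus strand), and that of Mrps11 holds the reverse complement.
Mrps11: ctacgggcgcCGCCATCTTtctgtcttccc
Mrps27: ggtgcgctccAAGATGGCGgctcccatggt
Mrps18a: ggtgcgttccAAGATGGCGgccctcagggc
Mrpl42: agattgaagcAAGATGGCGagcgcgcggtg
Mrpl37: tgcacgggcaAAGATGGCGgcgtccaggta
The median summit of the peak shared by Mrps11 and Mrpl46, at position 78783015 of chromosome 7, falls within the Mrps11 stretch. Mrpl46 is counted as without a YY1 match, since this motif lies past the end of its own window. The 8 members with a YY1 match had a median mean percentile of 95.3 (lowest 44.9), and the 61 without had 61.9. Over all windows these medians were 67.8 with a match (334 genes) and 52.3 without (11845 genes). Of the 69 windows, 63 overlapped the strongest peak of their gene in all 7 libraries. Among the 8 with a YY1 match, that of Mrpl36 overlapped it in 0 libraries and that of Mrpl37 in 3.

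No member was called different between WTAkita and Ctrl after adjustment over all genes tested. Log2 fold enrichments were quantile-normalized over the 15825 genes with a promoter peak in all 7 libraries and compared with limma, with Benjamini-Hochberg adjustment over all of them. At an adjusted p under 0.05, 0 of 78 members were called, beside 0.0126% of all genes tested, which is 2 genes, neither of them a member. The smallest adjusted p of a member from limma was 0.999. At an unadjusted p under 0.05, limma returned 4 members, each lower in WTAkita, which is 5.13% of the members beside 3.94% of all genes tested. The median difference of the members was 0.0010 on the log2 scale, against 0.0060 over all genes tested, with 40 members above 0 and 38 below, and 66 members differed by less than 0.1.

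The 95% interval of a member's difference reached 0.15 to either side on the log2 scale in the median, and at most 0.61. For 67 of 78 members the whole interval lay between -0.3 and 0.3.

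**Figure D4:**
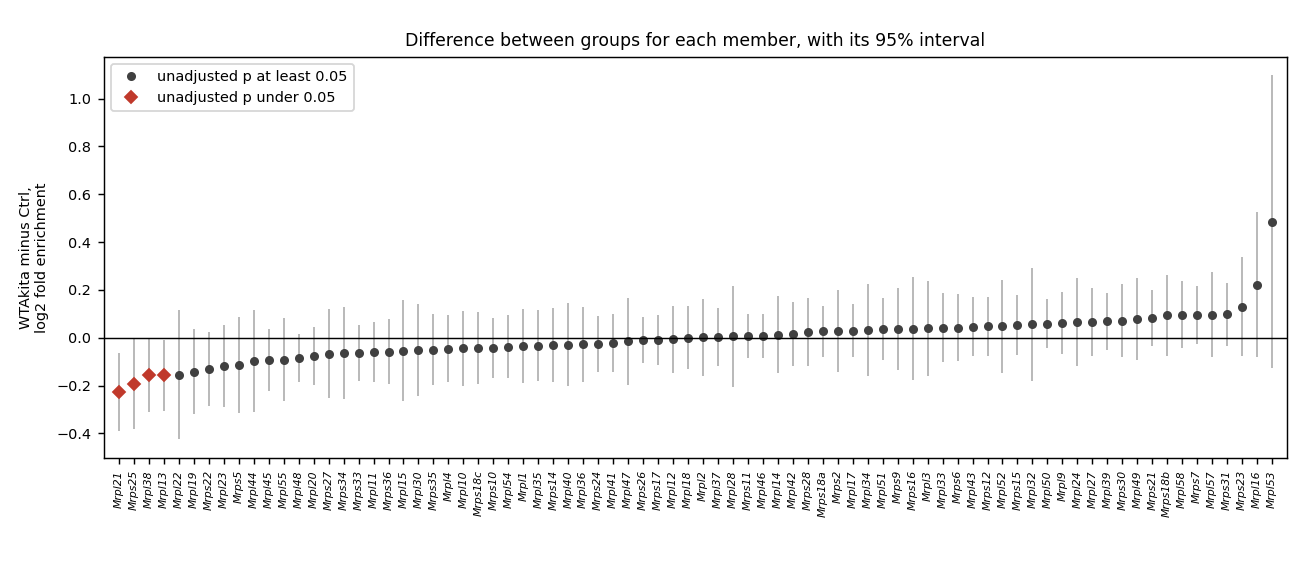
Difference in quantile-normalized log2 fold enrichment, WTAkita minus Ctrl, for each of the 78 members in ascending order, with its 95% interval from limma (4 WTAkita and 3 Ctrl libraries). Red diamonds are the 4 members with an unadjusted p under 0.05, all below 0, and Mrpl53 at the right has the largest difference and the widest interval.

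The groups did not overlap after normalization in 4 members, beside 4.68% of all genes tested, and 4 of 78 is 5.13%. Mrpl21, a large subunit protein with a bacterial counterpart, had raw fold enrichments of 13.4, 16.8, 20.1 and 19.2 in the WTAkita libraries, against 19.2, 21.4 and 21.8 in the Ctrl libraries. Its difference was -0.23 ± 0.07 (SE) on the log2 scale. WTAkita replicate 1 was the lowest, raw values of WTAkita replicates 3 and 4 reach into the Ctrl range, and the peak is shared with Ighmbp2, a helicase gene that starts 116 bp away on the opposite strand.

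Mrpl13, a large subunit protein with a bacterial counterpart, had 10.6, 12.9, 13.7 and 14.8 in the WTAkita libraries, against 13.8, 16.0 and 14.9 in the Ctrl libraries. Its difference was -0.16 ± 0.07 (SE), and its raw values overlap. Mrps31, of the small subunit, had 13.7, 13.8, 14.9 and 14.9 in the WTAkita libraries, against 12.8, 14.3 and 14.4 in the Ctrl libraries, with a difference of 0.10 ± 0.06 (SE). Mrps7, a protein of the small subunit head, had 15.0, 15.3, 17.7 and 17.9 in the WTAkita libraries, against 15.5, 15.5 and 16.7 in the Ctrl libraries, with a difference of 0.10 ± 0.06 (SE). Raw values of Mrps31 and Mrps7 overlap, and the groups part only after normalization.

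Among the other members with the lowest moderated statistics, Mrpl38, part of the central protuberance of the large subunit, had 18.1, 17.1, 23.6 and 21.7 in the WTAkita libraries, against 21.5, 22.7 and 24.8 in the Ctrl libraries (difference -0.16 ± 0.07, SE). Mrps25, of the small subunit, had 9.89, 12.8, 12.5 and 14.1 in the WTAkita libraries, against 15.1, 14.4 and 13.8 in the Ctrl libraries (difference -0.19 ± 0.09, SE). Raw values of 2 WTAkita libraries lie within the Ctrl range for Mrpl38, and 1 does for Mrps25. Mrps22 and Mrpl48, given above, differed by -0.13 ± 0.07 and -0.09 ± 0.05 (SE).

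The highest statistics after Mrps7 and Mrps31 belonged to Mrpl53, Mrpl16, Mrps21 and Mrpl58. Mrpl16 differed by 0.22 ± 0.14 (SE), and its values are given above. Mrps21, of the small subunit, had 22.0 to 25.4 in the WTAkita libraries and 21.0 to 24.1 in the Ctrl libraries (difference 0.08 ± 0.05, SE). Mrpl58, a peptidyl-tRNA hydrolase built into the large subunit, had 15.6 to 19.3 in the WTAkita libraries and 17.1 to 17.9 in the Ctrl libraries (difference 0.10 ± 0.06, SE).

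Mrpl53, of the large subunit, had the largest difference of all members, 0.49 ± 0.28 (SE), and the largest spread of percentile, 18.6 (SD over 7 libraries). Its fold enrichment was 11.1, 13.8, 7.87 and 14.9 in the WTAkita libraries, against 7.08, 14.4 and 6.11 in the Ctrl libraries, so the values fall into a high and a low set that both groups share. A second peak has its summit 1311 to 1327 bp upstream in every library, at fold enrichments of 11.1 to 16.4 in the WTAkita libraries and 13.8 to 16.3 in the Ctrl libraries. Its inner edge lies 931 to 1054 bp from the start and came within 1000 bp in WTAkita replicates 1, 2 and 4 and in Ctrl replicate 2, the 4 libraries with the high values. The peak at the start itself had 5.83 to 7.71 in the WTAkita libraries and 6.0 to 7.24 in the Ctrl libraries.

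**Figure D5:**
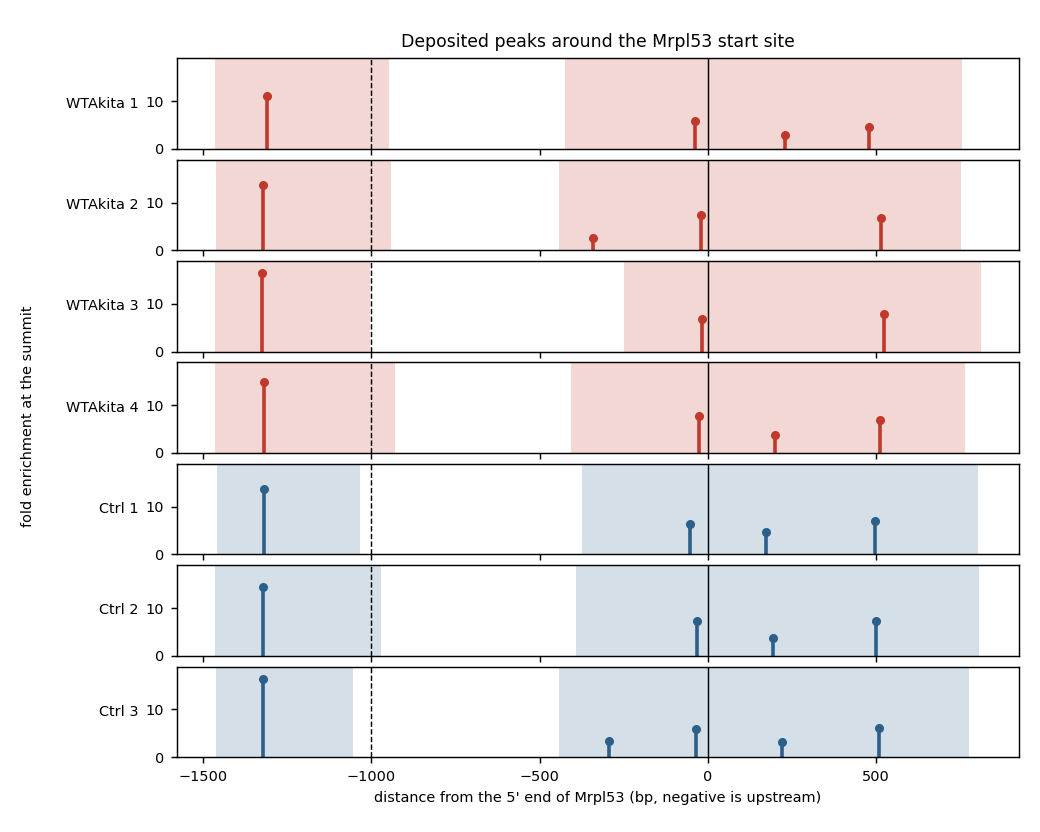
Deposited peaks around the 5' end of Mrpl53 in each library, with distance from the 5' end on the x axis (bp, negative is upstream) and fold enrichment at the summit as the height of each line. Shaded spans are the peaks, the solid line is the 5' end and the dashed line marks 1000 bp upstream, which the upstream peak reaches in WTAkita replicates 1, 2 and 4 and in Ctrl replicate 2.

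The next largest spreads of percentile were 11.3 for Mrpl32 and 10.3 for Mrps23 (SD over 7 libraries). Mrpl32, a large subunit protein that is cleaved by a mitochondrial protease before assembly, had 18.1, 17.2, 19.7 and 19.6 in the WTAkita libraries, against 19.3, 21.7 and 15.0 in the Ctrl libraries, and Ctrl replicate 3 was the lowest. Mrps23, of the small subunit, had 12.5, 17.1, 18.7 and 18.0 in the WTAkita libraries, against 13.7, 18.0 and 15.0 in the Ctrl libraries. Low and high values of both genes occur in both groups.

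The related lists behaved in the same way, with no gene of any list called. Of 77 genes in the 6 lists of mitochondrial gene expression, 4 had an unadjusted p under 0.05 from limma, 2 in each direction, beside 3.94% of all genes tested. Tsfm, a mitochondrial elongation factor, differed by -0.18 ± 0.06 (SE) and Tfam by -0.17 ± 0.07, while Mtfmt, which formylates the initiator methionine, differed by 0.14 ± 0.06 and the tyrosyl-tRNA synthetase gene Yars2 by 0.12 ± 0.05. Among 81 cytosolic ribosomal protein genes tested 1 had an unadjusted p under 0.05, and among 41 Slc25a genes 0 had. The regulators of the motifs described above, Nrf1, Gabpa and Yy1, differed by -0.02 ± 0.06, 0.06 ± 0.06 and 0.05 ± 0.06 (SE).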

How the data were processed

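ATAC-Seq libraries of 4 WTAkita and 3 Ctrl samples were compared. Trim Galore 0.4.2, cutadapt 1.9.1 and Bowtie2 2.3.4.1 were used by the authors for trimming and for alignment to mm10, followed by duplicate removal and MACS2 peak calling on each library alone (version 2.1.4 per the labels), with tags of 150 bp centred on the cut and no input control. Each deposited fold enrichment is the ratio of summit pileup to local background and carries no scaling across libraries, so a change in background moves it like a change in accessibility. The deposited −log10 p-values and −log10 q-values depend on depth, and the deposited score, derived from them, was not used. Depth was estimated from the background level MACS2 used, since the files give no read totals, and the summit pileup was solved from the deposited values.

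Start sites came from GENCODE vM21 for mm10, on 19 autosomes, X and Y, and no peak lay past a chromosome end of GRCm38. Genes were joined to peaks in Python 3.11.15 (pandas 2.3.3, scipy 1.17.1, numpy 2.4.6), and a second join with bedtools 2.31.1 gave 0 genes that differed. Log2 fold enrichments of genes with a peak in all 7 libraries were quantile-normalized and tested with limma 3.58.1 (trend) in R 4.3.3. Alternatives covered the window, start sites, peak threshold, normalization, value, filter, trend, replicate block, the 3 libraries of lowest enrichment and each library in turn. Promoter sequences are RefSeq, GRCm38.p6.

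Members and gene lists were chosen with earlier results of these data known. Members were named when they lacked a peak (none did), were among the 6 highest or lowest in level or in either direction of the moderated statistic, had groups that do not overlap, had 1 of the 3 largest spreads, led or closed a role group, or were among the 5 highest that share a promoter. The wider definition of opposite-strand neighbours was also chosen after seeing the data. The gene pairs and promoters described beyond that were chosen after their values were seen. From the other lists the leading genes in each direction are named. Beyond that rule, Polrmt, Tefm and Tfam are named for their level, and Nrf1, Gabpa and Yy1 as regulators of the motifs. Rpl10l, Rpl39l, Rpl3l and Rps27rt are named for lacking a peak.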

Additional observations from a re-analysis of the deposited data

Results flagged for a closer look

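Within the 4 WTAkita libraries, 3 of the 27 named members had 1 value far from the other 3 by Dixon's criterion. Chance meets it in about 1 in 20 unselected groups. The named members were chosen from these same values, so that rate does not apply to them. All 3 values were those of WTAkita replicate 1, the library with the lowest median fold enrichment over all its peaks (5.25). Mrps22 had a fold enrichment of 20.6 there, and 27.4 to 28.0 in the other WTAkita libraries. Mrpl22 had 5.25 there, and 7.88 to 8.26 in the others. Mrpl58 had 15.6 there, and 18.8 to 19.3 in the others. These are raw values, and the part of the library's lower enrichment in them was not tested.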

How the results depend on the processing

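No member was called under any of the 21 alternatives, of which 1, the quantile-normalized scaled pileup, was chosen after seeing the data. A promoter peak in every library was found for 78 members under 11 of 12 alternatives and for 76 with the gene record start only, where Mrpl35 and Mrps24 had 0 libraries with one. The median percentile of 68.8 and the median difference of the members against all genes (-0.0050) moved by less than the spread between libraries (2.21 percentiles and 0.033), under the 12 and 21 alternatives run for these values. The count of all genes called, 2, is too small to be stable. It was 0 with windows of 500 or 2000 bp, with the gene record start only and with summits within 1000 bp, 69 with the scaled summit pileup and 5 once this was quantile-normalized, 4 without the 3 libraries of lowest enrichment, and 2 to 14 with 1 library left out (14 without WTAkita replicate 4, 4 without Ctrl replicate 2). The cause was not tested. Without normalization the median difference of all genes was -0.040 on the log2 scale with fold enrichment and -0.13 with the scaled pileup. That of the members was -0.047 and -0.16. The level of the medians in the main fit therefore rests on the normalization.

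Replicate numbers are shared by the groups. Deviations from the group mean correlated at 0.267, 0.0188 and 0.102 between samples of the same number. Whether samples of the same number were paired cannot be told from such correlations. With the replicate block 12 genes and 0 members were called. At an unadjusted p under 0.05 from limma it returned 8 of 78 members, 3 of them higher in WTAkita, beside 6.84% of all genes tested. Without the block these were 4 members and 3.94%. WTAkita replicate 4 has no Ctrl library of its number, so it adds nothing to the blocked difference. With that library left out and no block, 14 genes were called, and limma returned 4 members and 4.77% at an unadjusted p under 0.05. The 14 members followed singly were picked from these data for their statistic, non-overlap or spread. The fits share libraries, so a kept sign is no independent support. Differences kept their sign in 287 of 294 fits, and the cause of the 7 reversals was not tested beyond what is said here. They were Mrpl48 (0.0027, gene record start only, where another peak is read), Mrpl32 (-0.10), Mrpl58 (-0.046), Mrps7 (-0.056) and Mrps23 (-0.00032) with the scaled pileup, Mrpl53 (-0.036) with the window of 2000 bp, where the upstream peak counts in every library, and Mrpl32 without Ctrl replicate 3 (range -0.11 to 0.15 with 1 library left out). The interval of a member's difference, 0.15 wide on either side in the median, limits what these 7 libraries can show, and with no read totals in the files depth is known only as an estimate.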
